A study of Rattus norvegicus with 6 samples.

Results

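Matrix metalloproteases and their tissue inhibitors were followed in whole rat ovaries at birth, at postnatal day 4 and after culture. The set held 8 genes: the proteases Mmp2, Mmp7, Mmp9, Mmp12 and Mmp14 and the inhibitors Timp1, Timp2 and Timp3. Every probe set whose platform annotation gave exactly 1 symbol equal to one of these names was taken, which gave 10 probe sets for the 8 genes, out of 7018 probe sets with 1 symbol for 4737 genes. Mmp2 and Timp1 each had 2 probe sets, and the pair for Timp1 was designed on the same sequence entry, so it does not give independent readings.

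RNA was hybridized to 6 Affymetrix rat arrays, 2 for each of 3 groups, and each array held a pool of about 20 ovaries. P0 ovaries were taken from pups on the day of birth (postnatal day 0), P4 ovaries on postnatal day 4, and cultured ovaries were removed at day 0 and then kept for 7 days on floating filters. The culture medium was a DMEM and Ham's F-12 mixture with albumin, Albumax, transferrin, insulin, ascorbic acid, penicillin and streptomycin. The labels name no strain, genotype or hormone for any group, while the design text of the series speaks of a progesterone treatment of cultured ovaries. The sources used here do not say whether either cultured array received it, so both were taken as 1 condition. The labels call the 2 pools of a group independent samples.

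Matrix metalloproteases are zinc-dependent enzymes that cut collagens, laminins, elastin and other matrix proteins, and most are secreted as inactive precursors. Tissue inhibitors of metalloproteases bind the active enzymes and block them. In the ovary the balance between them is known for the tissue remodelling around growing follicles, ovulation and the corpus luteum, and the newborn ovary is remodelled as germ cell nests break up into primordial follicles.

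The arrays had been scaled by the authors to one level, and the mean left after trimming 2% of values at each end was 125.2 on each. Of the probe sets 6118 were bright enough to be tested, with a median standard error of 0.259 on the log2 scale. P0 replicate 1 stood apart on its GAPDH control probes, which read 1324.2 at the 3′ end (2162.3 to 2775.1 elsewhere) and 1386.3 at the 5′ end (2005.7 to 2673.6 elsewhere). For each member the change in culture against P0 is therefore also given without it. The ovarian identity of the pools was visible in oocyte and granulosa genes: Zp2, of the oocyte coat, read 282.4 to 1782.3 over the 6 arrays, and Inha, the inhibin alpha subunit, 238 to 1970.3. P0 and P4 arrays with the same replicate number share a chip identifier batch, while each cultured array has a batch of its own. Culture and chip batch can therefore not be told apart, and neither can culture and the time since birth.

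The regulatory sequence is shown for the members with the largest increases in culture, Mmp7 and Mmp12, which lie in 1 gene cluster. AP-1, the Fos and Jun transcription factor dimer, is a known regulator of metalloprotease genes. Each line gives the 250 bases before the gene's start in RefSeq (GRCr8), 5′ to 3′ on the plus strand, chr8:13132793-13133042 for Mmp7 and chr8:12866402-12866651 for Mmp12, with matches to the AP-1 letters TGANTCA in capitals.
Mmp7: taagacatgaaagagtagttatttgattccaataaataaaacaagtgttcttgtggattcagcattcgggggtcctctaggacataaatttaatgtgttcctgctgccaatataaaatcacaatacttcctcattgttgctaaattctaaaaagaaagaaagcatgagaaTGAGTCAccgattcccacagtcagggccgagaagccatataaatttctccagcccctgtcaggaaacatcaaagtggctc
Mmp12: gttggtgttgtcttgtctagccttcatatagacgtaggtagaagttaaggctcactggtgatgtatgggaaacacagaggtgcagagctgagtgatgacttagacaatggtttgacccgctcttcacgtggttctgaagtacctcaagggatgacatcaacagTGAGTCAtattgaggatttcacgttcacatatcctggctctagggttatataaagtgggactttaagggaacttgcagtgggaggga

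Both strands were searched, and TGANTCA reads the same on either. Each of these 2 promoters held 1 match, starting 80 bases before the gene's start in Mmp7 and 87 bases before it in Mmp12. Of 33469 RefSeq promoters of this length, 2122 held a match (6.34%). The windows of Timp1, Timp2 and Timp3, the other members with an entry, held none, although the window of Timp1 does not end at the start its RefSeq gene entry gives. They held 1, 1 and 3 matches to the Sp1 letters GGGCGG on either strand, which 30.5% of all promoters hold and which Mmp7 and Mmp12 did not. Mmp2, Mmp9 and Mmp14 had no entry. A match is a description of letters and no measure of binding. Only exact matches were counted, so letters that depart from the pattern were passed over, such as TGAGTAA in the window of Timp1.

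Between birth and day 4, none of the 10 probe sets passed the test. The test was limma on log2 intensities. A probe set passed where its p, adjusted by Benjamini and Hochberg's method over all 6118, was below 0.05. In this comparison 1.08% of all tested probe sets passed, 0.85% upward and 0.229% downward. At an unadjusted p under 0.05 the count was also 0, against 793 of the 6118. In 4 of the 10 the P0 and P4 arrays did not overlap, against 44.2% of all tested probe sets, and for Mmp7 and Mmp9 among them 3 and 4 of the 4 readings were no brighter than absent control transcripts. Without P0 replicate 1 none of the 10 passed either, and Timp3 had the largest move, from a log2 change of -0.51 to -0.86 (limma adjusted p = 0.366). With the chip batch as a block none of the 10 passed either, although the number of probe sets called in the whole table went from 66 to 314.

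After 7 days of culture, 3 proteases and 1 inhibitor were higher than at birth. Mmp7, Mmp12 and Mmp9 rose from intensities near or under those of absent control transcripts, and Timp1 rose on 1 of its 2 probe sets. In all, 4 of 10 probe sets passed upward and none downward, against 5.43% of all tested probe sets, 3.48% upward and 1.95% downward. Against P4, 5 of 10 passed upward and none downward, for the same 4 genes, against 2.78% of all tested probe sets, 2.16% upward and 0.621% downward. These counts describe the 10 and are not offered as support: Mmp9 and Mmp12 cleared the filter on dim probe sets through their cultured arrays alone. The cultured arrays did not overlap the P0 arrays in 8 of the 10 and the P4 arrays in 9 of the 10, against 50.4% and 43.6% of all tested probe sets. The comparisons with P0 and P4 share the cultured arrays.

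**Figure D1:**
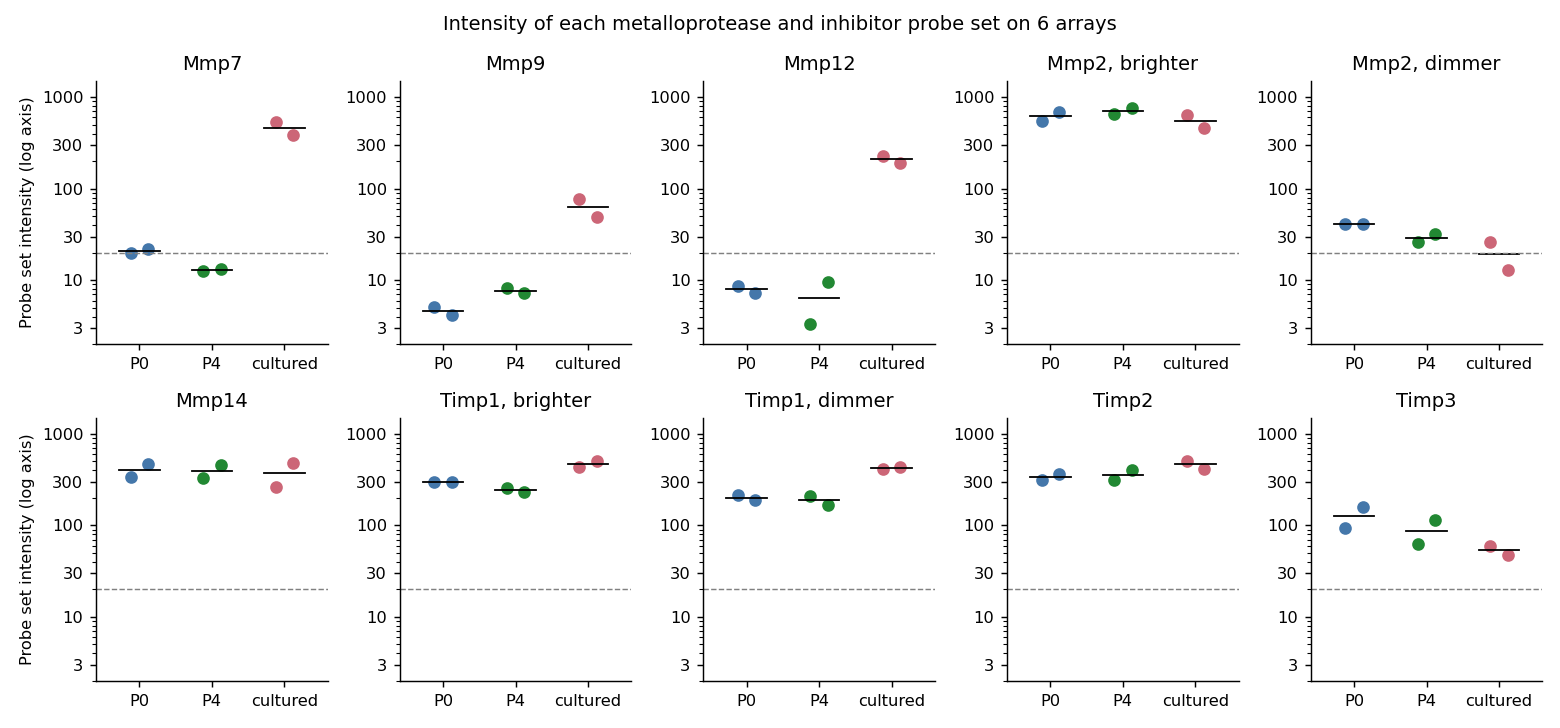
Intensity (log axis, arbitrary units as deposited) of the 10 probe sets on each array, by group; points are arrays, black lines are group means, and the dashed line is the highest reading of absent control transcripts, 20. Mmp7, Mmp9 and Mmp12 sit between 48.5 and 536 in culture and at or under 22.1 before it, while the brighter Mmp2 probe set and Mmp14 overlap between P0 and culture.

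Mmp7, matrilysin, is a small metalloprotease without the hemopexin domain that most of the family carry, and is made mainly by epithelial cells. Its probe set (L24374_at) read 19.8 and 22.1 at P0, 12.6 and 13.1 at P4, and 536 and 388.9 in culture. Both cultured arrays were far above the other 4, and the P4 arrays lay below the P0 arrays. A level of 20, the highest intensity on any array of 23 control probe sets for transcripts that were not spiked in, was used as a bound for dim readings. One of the P0 arrays and neither P4 array exceeded it. Set against that level, Mmp7 was at least 21.7-fold higher in culture than at P0 and at least 22.8-fold higher than at P4. The fitted log2 changes, on the log2 scale after adding a pseudocount of 7.7, were 4.02 (SE 0.24, limma adjusted p = 2.09e-05) and 4.50 (SE 0.24, limma adjusted p = 9.94e-06). These were the 8th and 6th smallest p-values among the 6118 probe sets. Without P0 replicate 1 the log2 change against P0 was 3.96 (limma adjusted p = 0.000312). Between P4 and P0 no difference can be read, since 3 of the 4 readings were under the control level. The fitted log2 change of -0.48 (limma adjusted p = 0.456) became -0.072 with readings raised to that level (limma adjusted p = 0.951).

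Mmp12, the macrophage metalloelastase, cuts elastin and is known chiefly from macrophages. Its probe set (X98517_at) read 8.7 and 7.3 at P0, 3.3 and 9.5 at P4, and 226.4 and 190.9 in culture. The 4 uncultured arrays were all under the control level of 20, so no difference between P0 and P4 can be read from them. Mmp12 was at least 10.4-fold higher in culture than in either uncultured group. The fitted log2 changes were 3.78 against P0 (SE 0.30, limma adjusted p = 0.000152) and 3.97 against P4 (SE 0.30, limma adjusted p = 0.000114). Without P0 replicate 1 the log2 change against P0 was 3.85 (limma adjusted p = 0.00104). With dim probe sets kept in the test, the adjusted p was 0.000834 against P0 and 0.000716 against P4.

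Mmp9, gelatinase B, cuts denatured collagen and basement membrane collagen and is abundant in granulocytes and activated macrophages. Its probe set (U24441_at) read 5.1 and 4.2 at P0, 8.2 and 7.2 at P4, and 76.9 and 48.5 in culture. As for Mmp12, only the cultured arrays exceeded the control level of 20. Mmp9 was at least 3.05-fold higher in culture than in either uncultured group. Its fitted log2 change was 2.48 against P0 (SE 0.33, limma adjusted p = 0.00364) and 2.16 against P4 (SE 0.33, limma adjusted p = 0.00721). The call against P4 ended without cultured replicate 1 (limma adjusted p = 0.0872). Without P0 replicate 1 the log2 change against P0 was 2.53 (limma adjusted p = 0.016), and with dim probe sets kept the adjusted p was 0.00589 against P0 and 0.0104 against P4.

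Mmp2, gelatinase A, is the counterpart of Mmp9 made by stromal cells, and it did not pass in any comparison on either probe set. The brighter one (U65656_at) read 543.8 and 692.5 at P0, 652.7 and 760 at P4, and 636.1 and 462.5 in culture. The P0 array values overlapped those of both other groups. Its log2 change was -0.18 in culture against P0 (95% interval -0.67 to 0.32, limma adjusted p = 0.711; -0.35 without P0 replicate 1), -0.37 against P4 (interval -0.87 to 0.12, limma adjusted p = 0.529) and 0.20 between P4 and P0 (interval -0.30 to 0.69, limma adjusted p = 0.792). The dimmer one (X71466_at) read 41.3 and 41.2 at P0, 26.1 and 32.3 at P4, and 26 and 13 in culture. Its P0 arrays lay above the other 4, and the 2 probe sets differed in sign between P4 and P0, where the dimmer one had a log2 change of -0.41 (limma adjusted p = 0.646). In culture against P0 its log2 change was -0.89 (95% interval -1.58 to -0.20, limma adjusted p = 0.139), and -0.89 without P0 replicate 1 (limma adjusted p = 0.295).

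Mmp14, the membrane-type protease that activates the Mmp2 precursor at the cell surface, overlapped between all groups. Its probe set (X83537_at) read 334 and 471 at P0, 331.1 and 461.6 at P4, and 265.7 and 484.9 in culture. Within each chip batch the P0 and P4 readings were close, at log2 changes of -0.01 for batch A and -0.03 for batch B. The spread between its 2 cultured arrays was larger than any of its group differences. Its log2 changes were -0.02 between P4 and P0 (95% interval -0.71 to 0.67, limma adjusted p = 0.988), -0.14 in culture against P0 (interval -0.83 to 0.55, limma adjusted p = 0.851; -0.38 without P0 replicate 1) and -0.12 against P4 (limma adjusted p = 0.923).

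Among the inhibitors, Timp1, a secreted inhibitor that binds the Mmp9 precursor and is readily induced in stromal cells, was higher in culture. Its brighter probe set (rc_AI169327_at) read 295.2 and 297.5 at P0, 254.9 and 233.6 at P4, and 438.5 and 505.9 in culture. Its dimmer one (rc_AI169327_g_at) read 213.7 and 187.3, 208.3 and 167.4, and 409.7 and 438.9. On both, each cultured array lay above each uncultured one. Against P0 the dimmer probe set passed with a log2 change of 1.06 (SE 0.21, limma adjusted p = 0.0201), and the brighter one did not, at 0.65 (95% interval 0.22 to 1.09, limma adjusted p = 0.0916). Against P4 both passed, with log2 changes of 0.93 for the brighter (SE 0.19, limma adjusted p = 0.0345) and 1.15 for the dimmer (SE 0.21, limma adjusted p = 0.0183). Group means were 472 ± 47.7 in culture, 296 ± 1.63 at P0 and 244 ± 15.1 at P4 on the brighter probe set (SD, n = 2).

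The calls of Timp1 rested on few arrays. Without P0 replicate 1 the log2 changes against P0 were 0.65 on the brighter probe set and 1.15 on the dimmer. Against P0 the dimmer probe set lost its call without P0 replicate 1, P0 replicate 2, cultured replicate 1 or cultured replicate 2 (limma adjusted p = 0.056, 0.101, 0.102 and 0.14). Against P4 it lost it without P4 replicate 2 or either cultured array (limma adjusted p = 0.11, 0.111 and 0.149), and the brighter one without either P4 array or either cultured array (lowest adjusted p = 0.122 and highest 0.246). Between P4 and P0 the log2 changes were -0.27 on the brighter (limma adjusted p = 0.629) and -0.10 on the dimmer (limma adjusted p = 0.904).

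Timp2, the inhibitor that also forms the complex with Mmp14 in which the Mmp2 precursor is activated, did not pass. Its probe set (S72594_s_at) read 316.6 and 363.8 at P0, 312 and 405.1 at P4, and 510.5 and 415.5 in culture. Both cultured arrays lay above the other 4, the nearer one by little. The log2 changes were 0.43 against P0 (95% interval -0.05 to 0.92, limma adjusted p = 0.303; 0.33 without P0 replicate 1), 0.37 against P4 (interval -0.12 to 0.85, limma adjusted p = 0.528) and 0.07 between P4 and P0 (limma adjusted p = 0.938).

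Timp3, the inhibitor that stays bound to the matrix, had the opposite order of levels. Its probe set (U27201_at) read 94.7 and 158.7 at P0, 62 and 113.1 at P4, and 59.3 and 47.5 in culture. The cultured arrays were the lowest, and the P0 and P4 arrays overlapped. Its log2 change in culture against P0 was -1.10 (95% interval -1.84 to -0.37, limma adjusted p = 0.0929), and -0.59 against P4 (interval -1.33 to 0.14, limma adjusted p = 0.482). The first depended on which P0 array was kept: it was -1.45 without P0 replicate 1 (limma adjusted p = 0.0726) and -0.75 without P0 replicate 2 (limma adjusted p = 0.344). Between P4 and P0 it was -0.51 (limma adjusted p = 0.578) (-0.55 within chip batch A, -0.46 within B). It passed in none of these comparisons. Because whole ovaries were used, fewer cells of a type and less RNA per cell cannot be told apart for this or any other member.

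**Figure D2:**
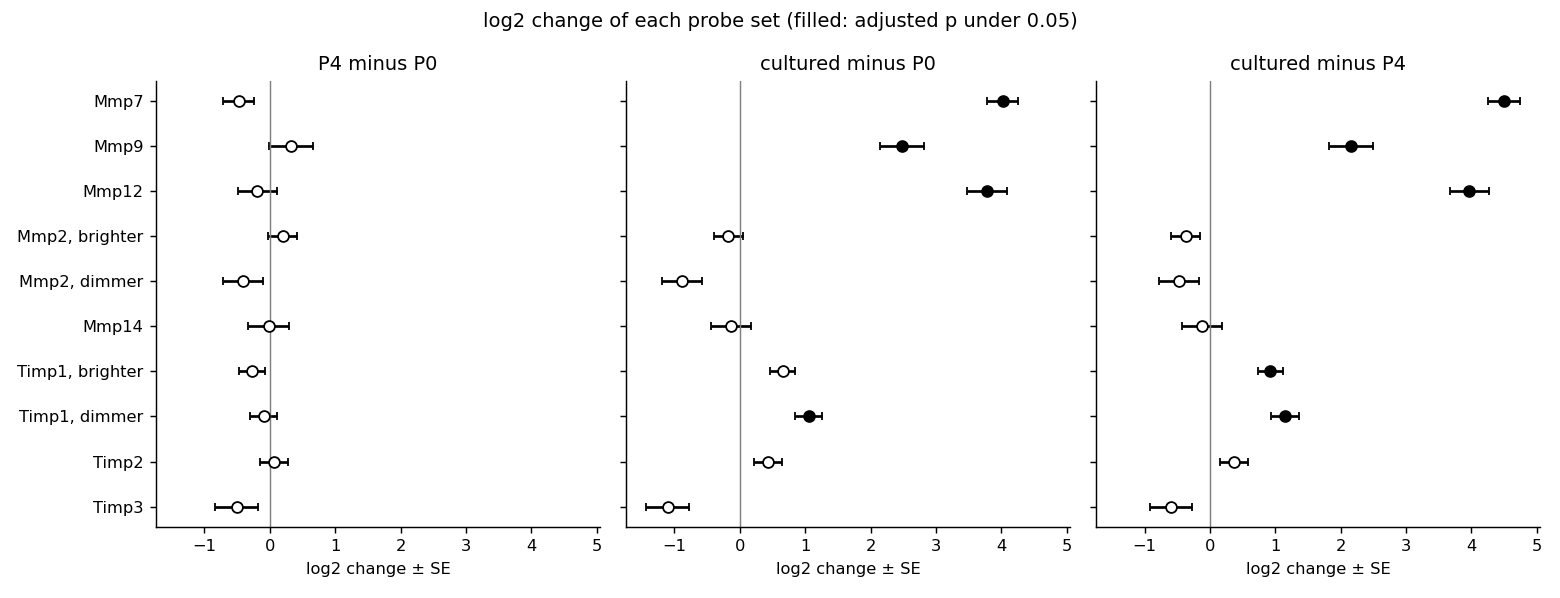
Log2 change of each probe set with its standard error (limma, 6 arrays) for P4 minus P0, cultured minus P0 and cultured minus P4; filled points have an adjusted p under 0.05. The P4 minus P0 changes lie between -0.51 and 0.32 with none filled (those of Mmp9 and Mmp12 compare readings under the control level), and in culture the 3 proteases Mmp7, Mmp12 and Mmp9 lie between 2.16 and 4.50.

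Proteases were set beside the inhibitors they are known to bind as the log2 difference on each array, of which only the change between groups can be read, since intensities of different probe sets are not comparable. With 2 arrays a group an exact two-sided permutation test cannot go below p = 0.333, so these are descriptions. The brighter Mmp2 probe set minus Timp2 was 0.77 and 0.91 at P0, 1.05 and 0.90 at P4, and 0.31 and 0.15 in culture. The cultured values lay below both other groups, by 0.61 from the mean of P0 and 0.74 from that of P4, with Mmp2 lower and Timp2 higher in their means while neither passed alone. Mmp14 minus Timp2 was 0.08 and 0.37 at P0, 0.08 and 0.19 at P4, and -0.92 and 0.22 in culture, where the 2 arrays spanned the other groups.

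Mmp9 minus the brighter Timp1 probe set was -4.56 and -4.68 at P0, -4.05 and -4.02 at P4, and -2.40 and -3.19 in culture. The size of this shift cannot be read from these values, because Mmp9 was under the control level on all 4 uncultured arrays and its log2 values there are set by the pseudocount. With readings under the control level raised to it, the log2 change of Mmp9 was 1.61 against either group, and that of the brighter Timp1 probe set was 0.67 against P0 and 0.95 against P4. The brighter Mmp2 probe set minus Timp3 was 2.43 and 2.07 at P0, 3.24 and 2.67 at P4, and 3.26 and 3.09 in culture. Both the P4 and the cultured arrays lay above the P0 arrays, by 0.70 and 0.93 in their means. The P4 and cultured arrays overlapped. On the dimmer Mmp2 probe set the log2 changes were close to those of Timp3. They were -0.41 beside -0.51 between P4 and P0, and -0.89 beside -1.10 in culture against P0. The shift therefore depends on the Mmp2 probe set.

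**Figure D3:**
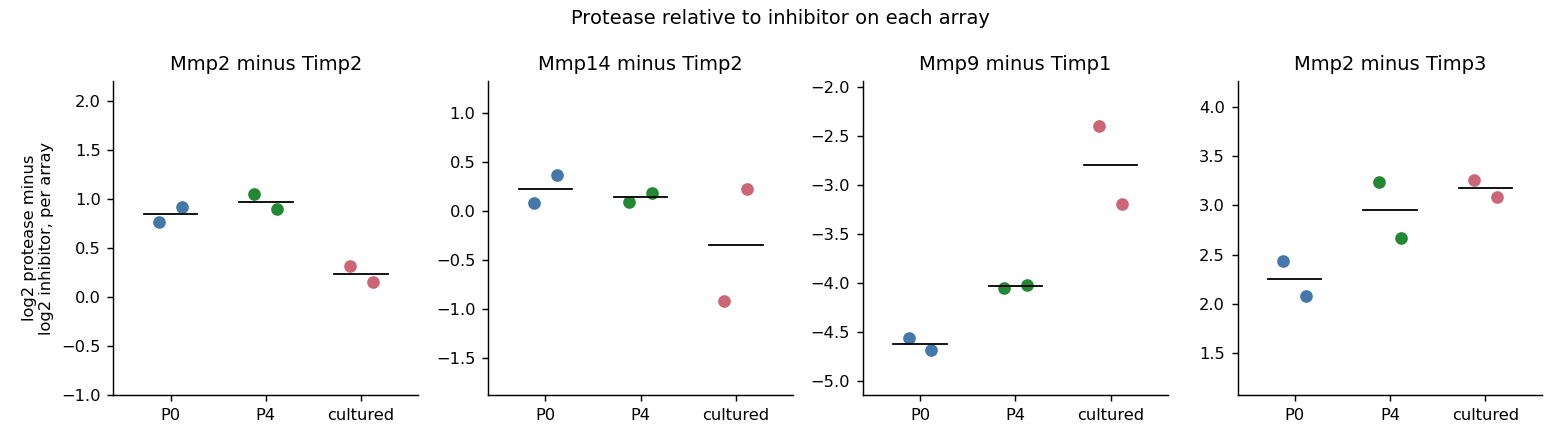
Log2 intensity of a protease minus that of an inhibitor on each array (points), with group means (lines), for 4 known pairs. The brighter probe set stands for Mmp2 and Timp1. Each panel spans the same range of log2 units, and only shifts between groups within a panel can be read. Mmp2 minus Timp2 is lowest in culture (0.31 and 0.15); for Mmp9 minus Timp1 the P0 and P4 points, and so the size of the shift, depend on the pseudocount, since Mmp9 read under the control level of 20 there.

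Mmp7 and Mmp12 lie in a run of 10 neighbouring metalloprotease genes, in the order Mmp13, Mmp12, Mmp1b, Mmp3, Mmp1, Mmp10, Mmp8, Mmp27, Mmp20 and Mmp7 in the RefSeq gene table. The array measured 6 of these 10. The interstitial collagenases Mmp13 and Mmp8 read 1 to 11.7 and 1.5 to 8.6 over the 6 arrays, and the stromelysins Mmp10 and Mmp3 read 3.2 to 6.8 and 10.6 to 28. Mmp13, Mmp10 and Mmp8 stayed under the control level of 20 on every array, cultured ones included, and were too dim to be tested. Mmp3, the only one of the 4 that was tested, had a log2 change of 0.04 in culture against P0 (limma adjusted p = 0.973). The differences between these genes and Mmp7 or Mmp12 were not tested.

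**Figure D4:**
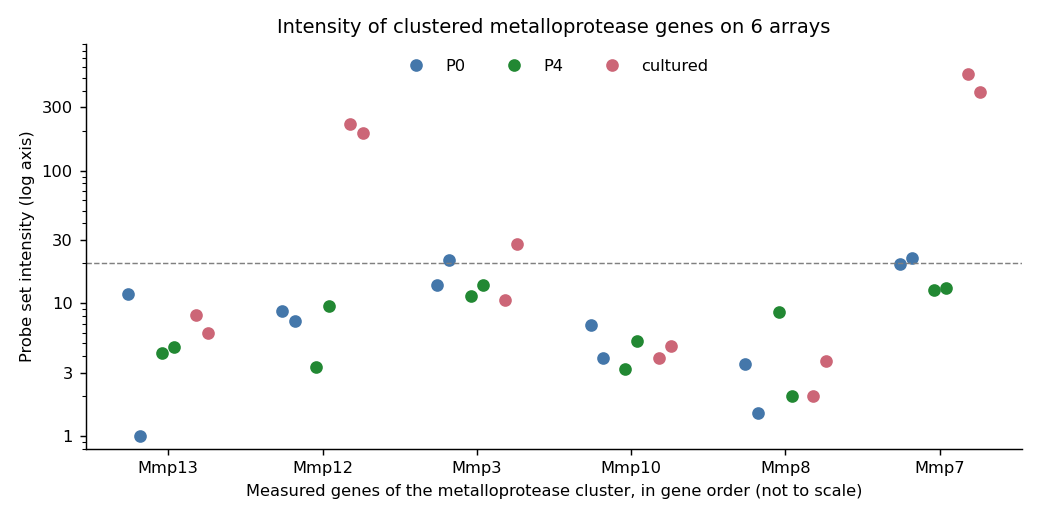
Intensity (log axis) of the 6 measured genes of the metalloprotease cluster in gene order, with a point for each array coloured by group and a dashed line at the control level of 20. Mmp12 and Mmp7 exceed 190 on both cultured arrays, and the highest reading of the 4 others is 28.

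Of the other metalloproteases and Timp4, 7 of 15 genes were on the array and 4 were tested, and none passed in any comparison by limma. At an unadjusted p under 0.05 the counts were 1, 0 and 1 for P4 against P0, culture against P0 and culture against P4. Of all 6118 tested probe sets, 793, 1270 and 858 reached that level in the same order. Mmp11, stromelysin-3, read 145.1 to 240.8 over all arrays, and Mmp23 243.7 and 257.5 at P0, 343.9 and 470.9 at P4, and 273.9 and 182.6 in culture (log2 change 0.67 between P4 and P0, limma adjusted p = 0.278). The membrane-type Mmp16 read 23.3 to 38.3. Adam10 and Adam17, membrane proteases that shed cell surface proteins, were measured alone of 8 ADAM and ADAMTS genes and neither passed, also not at an unadjusted p under 0.05 (0 of 2 in each comparison).

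Among 8 tested activators and regulators, 3 rose in culture against P0, none fell and 5 did not pass, with a median log2 change of 0.81 beside -0.08 over all tested probe sets. Of all tested probe sets, 3.48% passed upward and 1.95% downward. Lcn2, lipocalin 2, which binds Mmp9 and protects it from degradation, read 94 and 74.1 at P0, 97.4 and 92 at P4, and 1108 and 795.1 in culture. Both cultured arrays were above all others, and it rose by 3.38 on the log2 scale against P0 (SE 0.24, limma adjusted p = 6.00e-05) and by 3.21 against P4 (limma adjusted p = 8.93e-05). Plaur, the receptor that holds urokinase at the cell surface, read 14.3 and 15.2 at P0 and 59.8 and 48.1 in culture. It was at least 2.68-fold higher (limma adjusted p = 0.0196). On the uncultured arrays Plaur read 11.1 to 15.2, and it cleared the filter on dim probe sets through its cultured arrays alone. Its place in the counts of genes that rose, here and against P4, is therefore not offered as support. Plau, the urokinase that starts the plasmin cascade by which metalloprotease precursors can be activated, read 43.9 and 44.2 at P0 and 104.6 and 83 in culture and rose by 0.96 on the log2 scale (limma adjusted p = 0.0444). Plau lost its call whichever of the 6 arrays was left out (highest adjusted p = 0.185), and Plaur without either P0 array or either cultured array (highest adjusted p = 0.112).

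Against P4, 3 of these 8 rose and none fell: Lcn2, Plaur (at least 2.68-fold, limma adjusted p = 0.0112) and A2m. Over all tested probe sets, 2.16% passed upward in culture against P4 and 0.85% between P4 and P0. A2m, the broad protease inhibitor alpha-2-macroglobulin, read 203.8 and 191.3 at P0, 28.6 and 82.2 at P4, and 450 and 304.4 in culture. It was higher in culture than at P4 by 2.73 on the log2 scale (limma adjusted p = 0.00465). That call was lost without cultured replicate 1 (log2 change 2.45) and with readings raised to the control level (limma adjusted p = 0.0641). Plaur lost its call there without P4 replicate 1, P4 replicate 2 or cultured replicate 1 (highest adjusted p = 0.0973). Between P4 and P0, Serpine2, an inhibitor of urokinase and thrombin, was the 1 of 8 that rose (log2 change 1.34, limma adjusted p = 0.0194), and its call ended in each of the 6 fits that left out an array (highest adjusted p = 0.0839).

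Of 13 tested genes for matrix proteins that these enzymes cut, 1 fell in culture against P0, none rose and 12 did not pass, with a median log2 change of -0.22. Over all tested probe sets 1.95% passed downward and 3.48% upward, and the median was -0.08. The one that fell was Eln, elastin, a substrate of Mmp12 and Mmp7. It read 865.5 and 1547.5 at P0, 557.3 and 917.4 at P4, and 478.2 and 190.1 in culture, and fell by 1.91 on the log2 scale (SE 0.43, limma adjusted p = 0.0319). That call ended without P0 replicate 2 or cultured replicate 2 (log2 changes -1.49 and -1.26), and also with dim probe sets kept in the test (limma adjusted p = 0.066). Raising readings to the control level or fitting no variance trend ended it too (limma adjusted p = 0.122 and 0.0752). The interstitial collagens Col1a2, Col5a2 and Col1a1 had log2 changes of -0.50, -0.65 and -0.36 (limma adjusted p = 0.109, 0.139 and 0.155). None of the 13 passed in culture against P4 or between P4 and P0, where 5 and 0 had an unadjusted p under 0.05. Of all 6118 tested probe sets, 858 and 793 did in these comparisons.

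Of 13 AP-1 and cytokine genes 11 were measured and 7 tested. In culture 1 of the 7 rose against P0 and against P4, and 6 did not pass. Over all tested probe sets 3.48% passed upward against P0 and 2.16% against P4. Among genes too dim to be tested, Tnf read 3.7 to 9.7, Il6 2 to 10.4, Fosl1 3.6 to 6.8 and Lif 7.9 to 24.5. Of these only Lif exceeded the control level of 20, at P0 replicate 2. Il1b, the cytokine interleukin 1 beta and a known inducer of metalloproteases, read 27 and 19.9 at P0, 19.2 and 21.1 at P4, and 186.8 and 117.7 in culture. Of the 4 uncultured arrays 2 exceeded the control level, and it was at least 6.38-fold higher than at P0 (limma adjusted p = 0.002) and at least 7.22-fold higher than at P4 (limma adjusted p = 0.00151). Fos, a subunit of AP-1, overlapped between groups, at 94.3 and 263.2 at P0, 98.2 and 461.6 at P4, and 99.6 and 158.6 in culture. Its partner Jun read 211.8 and 358.2 at P0, 165 and 368.4 at P4, and 175 and 183.4 in culture, where both arrays lay below the P0 arrays (log2 change -0.60, limma adjusted p = 0.397). Tgfb1 had a log2 change of 1.17 against P0 (limma adjusted p = 0.225).

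Markers of other cell types moved in the same comparisons. Of 18 macrophage and leukocyte markers 11 were measured and 9 tested, Csf1r and Itgam being too dim. In culture 6 of the 9 rose, none fell and 3 did not pass, both against P0 and against P4. Over all tested probe sets, 3.48% passed upward against P0 and 2.16% against P4. The intensities of the 11 summed to 537.9 and 655.8 at P0, 355.5 and 434.7 at P4, and 3853 and 1908.3 in culture. Lyz2 was the largest single part of the sum on both cultured arrays. Lyz2, a lysozyme of macrophages, was at 110.8 and 141.3 at P0 and 2267 and 955.7 in culture (log2 change 3.48, limma adjusted p = 0.000587), and the Fc receptor gene Fcgr2b was at least 5.28-fold higher (limma adjusted p = 0.00469). Fcgr2b read 6.4 to 10.4 on the uncultured arrays, and it cleared the filter on dim probe sets through its cultured arrays alone. Its place among the 6 is therefore not offered as support. With readings raised to the control level its call ended (limma adjusted p = 0.0535 against P0 and 0.0699 against P4). The others that rose were Cd53, Aif1, C1qb and Cd14, and each of these 4 lost its call against P0 without at least 1 array. The leukocyte marker Ptprc read 22.8 to 41.6 over all arrays, and the macrophage receptor Csf1r exceeded the control level on 1 cultured array, at 20.9. C1qc read 138.3 and 163.8 at P0, 86.2 and 82.4 at P4, and 159.6 and 151.5 in culture. Its log2 change was 0.04 against P0 (limma adjusted p = 0.936) and 0.83 against P4 (limma adjusted p = 0.0812). Cd74 did not pass either, at 1.29 against P0 (limma adjusted p = 0.103). No measured marker of this list was listed at 0 on all arrays, and 1, the integrin Itgam, was under the control level on every array. Mmp7, Mmp12, Mmp9 and Lcn2 moved with the 6 markers that rose, whose part in the result was not tested.

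Of 6 neutrophil markers 2 were measured, S100a8 and S100a9. Their intensities summed to 35.3 and 37.5 at P0, 30.3 and 15.4 at P4, and 25.5 and 4.1 in culture. S100a8 stayed under the control level on every array, and S100a9 read 3 to 26.1. The part of neutrophils in the rise of Mmp9 was not tested. Of 7 surface epithelium markers 4 were measured. Beside 3.48% and 2.16% of all tested probe sets that passed upward against P0 and P4, 2 of the 4 rose in culture against both groups. These were the keratins Krt18 and Krt8, which granulosa cells also make, with log2 changes of 2.21 and 0.92 against P0 (limma adjusted p = 0.00469 and 0.0323). The call of Krt8 against P0 ended without either P0 array or either cultured array (highest adjusted p = 0.161), and that of Krt18 without cultured replicate 2 (adjusted p = 0.0679). The sum of the 4 was 1618 and 1650.9 at P0, 1011.2 and 1314.8 at P4, and 1714 and 1703 in culture. The brightest of the 4, the keratin Krt19, read 1103.3 and 1131.1 at P0, 361.7 and 571.2 at P4, and 691 and 480.2 in culture (log2 change -0.95 against P0, limma adjusted p = 0.0682), so the list did not move one way. The part of these cells in the rise of Mmp7 was not tested. The 8 stromal fibroblast markers summed to 14475.4 and 16247.5 at P0, 13393.6 and 16148.2 at P4, and 12731.9 and 11913.9 in culture. Against P0, 1 of the 8, Postn, fell (log2 change -1.55, limma adjusted p = 0.0066), beside 1.95% of all tested probe sets passing downward. The call of Postn was lost without cultured replicate 2 (log2 change -1.20).

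Granulosa and oocyte markers also moved. In culture, 1.95% of all tested probe sets passed downward and 3.48% upward against P0, and 0.621% passed downward against P4. Of 6 tested granulosa markers, 3 were lower in culture than at P4, none was higher and 3 did not pass. These were Inha (log2 change -1.98, limma adjusted p = 0.00465), the hormone gene Amh (-1.74, adjusted p = 0.00407) and the aromatase gene Cyp19a1 (at least 5.33-fold lower, adjusted p = 0.008), and each lost its call without cultured replicate 1 (adjusted p = 0.0864, 0.0542 and 0.0908). Amh also lost it without cultured replicate 2, and Cyp19a1 without cultured replicate 2 or P4 replicate 1. Cyp19a1 read 5.6 and 16.2 at P0, 132.6 and 85.7 at P4, and 13.4 and 18.9 in culture. It cleared the filter on dim probe sets through its P4 arrays alone, so its place among the 3 is not offered as support. Against P0, 1 of the 6 was lower, the activin-binding Fst (log2 change -1.64, limma adjusted p = 0.00407), a call lost without cultured replicate 2 (adjusted p = 0.0636). The 7 measured granulosa genes summed to 1558.6 and 1544.7 at P0, 3412.4 and 2391.7 at P4, and 899.5 and 985.5 in culture. Of 4 tested oocyte markers, the coat protein genes Zp1, Zp2 and Zp3 were higher in culture than at P0, and Zp2 kept its call with each array left out (log2 change 2.09, limma adjusted p = 0.000239). Zp1 and Zp3 lost theirs without either P0 array or either cultured array (highest adjusted p = 0.104 and 0.167). The 4 oocyte genes summed to 945.9 and 1058.8 at P0, 3601.2 and 3918.5 at P4, and 2956.5 and 2565.2 in culture. The part of these cells in the members' changes was not tested. None of 4 tested endothelial and 6 tested smooth muscle markers passed in culture by limma. Against P0, 3 and 2 of them had an unadjusted limma p under 0.05, beside 1270 of all 6118 tested probe sets. Against P4 the counts were 0 and 0, beside 858 of the 6118.

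**Figure D5:**
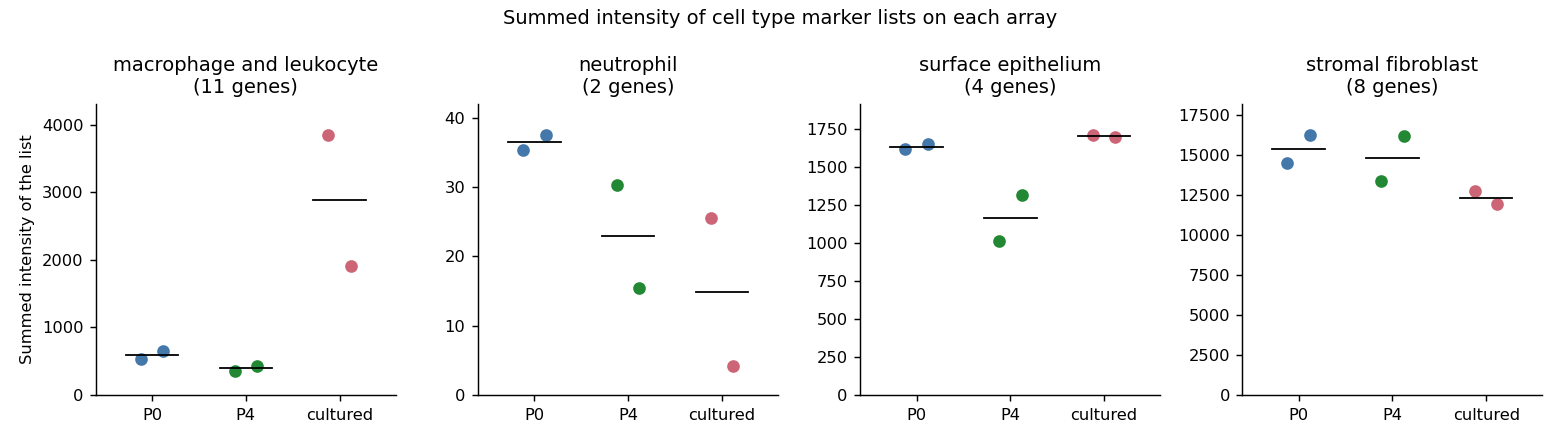
Summed intensity of the measured genes of 4 marker lists on each array (points) with group means (lines), each axis starting at 0. The macrophage and leukocyte sum is 1908.3 and 3853 in culture against 355.5 to 655.8 on the other arrays, while the neutrophil sum is at most 37.5 throughout.

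The genes whose log2 values followed each called member most closely over the 6 arrays were named by Pearson's r, as a description. The arrays fall into a cultured and an uncultured cluster, so a high r mostly restates the step in culture: 75 of 5026 other named probe sets reached 0.95 for Mmp7. Mmp9, Mmp12, Plaur and the complement gene C3 also read under the control level of 20 on every uncultured array. Their log2 values there depend on the pseudocount, so r does not describe these genes before culture. For Mmp7 the closest were Cp, the copper carrier ceruloplasmin (r = 0.999, at 28.1 and 32.4 at P0 and 136.8 and 116 in culture), Plaur (r = 0.998) and Lgals3bp, a secreted galectin ligand (r = 0.997). For Mmp12 they were C1s, a protease of the complement cascade (r = 0.998, at 125.8 and 115.8 at P0 and 792.5 and 678.1 in culture), Gpx2, a glutathione peroxidase (r = 0.997), and Lgals3bp (r = 0.997). For Mmp9 they were Stambp, a deubiquitinating enzyme (r = 0.998), the growth factor precursor Grn (r = 0.996) and the complement protein C3 (r = 0.995, at 2 and 1.6 at P0 and 471.3 and 180.8 in culture). For Timp1 they were both probe sets of Anxa1, annexin A1 (r = 0.996 and 0.992), and Gstt2, a glutathione transferase (r = 0.99).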

How the data were processed

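The deposited table holds linear probe set intensities without detection calls, and the authors had brought all arrays to one overall level. Which software made them is not given in the sources used here, while the labels' protocols name only standard manufacturer procedures for labelling. Values were kept as deposited. Before log2, 7.7 was added to each value (20th percentile of the table). After 59 control probe sets had been left out, the dimmest 30% by mean log2 value were dropped (2622), leaving 6118. All 10 of the metalloprotease and inhibitor probe sets passed. Group means of all 6 arrays were fitted with limma 3.58.1 in R 4.3.3 (variance trend, 3 residual and 6.45 prior degrees of freedom), two-sided, with Benjamini-Hochberg adjustment over all 6118. The fit was tested on simulated data. With 2 arrays a group, their number limits the precision.

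Symbols came from the platform annotation (1 symbol for 7018 probe sets, several for 308, none for 1473); 6994 matched the RefSeq gene table by gene number. The brightest probe set stood for each gene in lists. The members, lists and control level of 20 were chosen with earlier results of these data known. Named were every member, up to 3 genes of a list with the smallest p, further list genes chosen after their values were seen, and the 3 most correlated probe sets of each called member. P0 and P4 arrays of the same number share a chip batch, and their deviations from group means correlated at 0.33, so the block was fitted for them; cultured arrays share no batch.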

Additional observations from a re-analysis of the deposited data

How the results depend on the processing

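Each result was recomputed with a smaller and a larger pseudocount, readings raised to the control level, no filter on dim probe sets, a 50th percentile filter, quantile normalization, no variance trend, only the 2 groups compared, a replicate block and each array left out. Of 441 log2 changes of single probe sets recomputed in this way, 415 kept their direction and their side of the threshold, 14 lost a call, 1 gained one and 11 changed sign; none that changed sign had passed. The cause was not tested for any of these.

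The count of called members was 0 for P4 against P0 under every alternative. For culture against P0 it was 4, and 3 to 4 with an array left out. For culture against P4 it was 5, and 2 to 5 with an array left out. The 50th percentile filter, which removes Mmp9, Mmp12 and the dimmer Mmp2 probe set, left 2 and 3. With the replicate block the calls were 0, 5 and 4: Timp3 passed against P0 (adjusted p = 0.00592), in a paired fit whose numbers follow no shared batch, and the brighter Timp1 probe set lost its call against P4 (adjusted p = 0.0844), as it did with no variance trend (adjusted p = 0.0737).

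The whole table is less stable. For P4 against P0, 66 calls became 1 with readings raised to the control level, 23 with no filter, 29 with no variance trend, 23 with only the 2 groups compared, 314 with the replicate block, and 15 to 55 with an array left out. For culture against P0, 332 became 159 at the control level, 566 with the replicate block and 90 to 353 with an array left out. For culture against P4, 170 became 100 at the control level and 86 to 193 with an array left out.

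The log2 changes that turned sign did so with an array left out. For P4 against P0 their ranges were -0.51 to 0.13 for Mmp12, -0.26 to 0.22 for Mmp14, -0.25 to 0.056 for the dimmer Timp1 probe set and -0.12 to 0.25 for Timp2. For culture against P0 they were -0.56 to 0.28 for Mmp14 and -0.40 to 0.051 for the brighter Mmp2 probe set, and for culture against P4 -0.54 to 0.30 for Mmp14. Readings under the control level limit Mmp7, Mmp9 and Mmp12 before culture to bounds.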
